A study of Homo sapiens with 24 samples.

Results

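LN-229, an established human glioblastoma line, was profiled by RNA-seq after transfection with an siRNA against ZNF593 (siZNF593, 3 libraries) and with a control siRNA (siControl, 3 libraries). These 6 libraries, taken by their titles from the 24 of the series, are compared across every gene with enough reads to be tested. All LN-229 cells carry the genotype label wild type and were grown in DMEM with serum, and no agent other than the siRNA is named. The time between transfection and harvest, and whether siZNF593 is 1 oligo or a pool, are not given in the sources used here. The other 9 LN-229 libraries, in 3 groups of 3, received an siRNA against ZFX (siZFX), both siRNAs (siZFX+siZNF593, the double knockdown) or a treatment labelled siControl under the title siControl_2. How siControl_2 relates to siControl (oligo, date or passage) is not given in the sources used here. They share in the estimate of the spread, and they are set beside siZNF593 where a direct comparison was possible. The 9 libraries of 293T cells were not used. Libraries of a group are described as biological replicates, and separate cultures are not mentioned. The p-values below therefore measure spread between libraries that could be technical.

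ZNF593 is a small zinc finger protein, the human counterpart of yeast Bud20. Bud20 travels with the precursor of the large ribosomal subunit from the nucleus to the cytoplasm, where it is released and recycled. Large subunits are built in the nucleolus from ribosomal RNA and imported ribosomal proteins with the help of many assembly factors, and the particle leaves the nucleus with export receptors such as NMD3 and XPO1. Proliferating tumour cells make ribosomes at a high rate, and growth factor signalling through ERK and MYC raises both ribosome production and entry into the cell cycle.

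Reads counted on genes numbered 16774179 to 19089631 per library with siZNF593 and 23168553 to 30159260 in siControl, so depth moves with the groups. Reads outside genes made up 6.54% to 7.31% of the total with siZNF593 and 4.596% to 5.998% in siControl, and mitochondrial reads 3.51% to 4.40% and 3.19% to 3.597% of gene counts. The part of these differences in the results was not tested beyond a comparison at equal depth, which gave 2145 higher and 2437 lower genes. All 14 markers fixed for LN-229 and glioma lines were above 1 CPM (counts scaled to a common library size). Their sum was 8984 to 9174 CPM in siControl and 6464 to 7130 CPM with siZNF593, 8 of the 14 being lower and 1 higher, against 14.6% and 12.2% of all tested genes. Endothelial and microglial markers were scarce, while lists of other cells had more reads. All 8 endothelial markers and 11 of 12 microglial and leukocyte markers had a mean under 1 CPM over the 6 libraries, among them PTPRC, AIF1 and PECAM1, and AIF1 and TYROBP had no reads. Fibroblast and pericyte markers summed to 93.0 to 105.0 CPM in siControl and 145 to 167 CPM with siZNF593, with COL1A2, DES and THY1 at means under 1 CPM. Astrocyte markers, some shared with the LN-229 list, summed to 464.6 to 482 CPM in siControl and 352.7 to 375.3 CPM with siZNF593. Neuron markers summed to 137 to 144.9 and 128.2 to 134.3 CPM, and epithelial and kidney markers to 81.5 to 91.2 and 62.6 to 68.2 CPM. The oligodendrocyte lineage is taken up below. The part of these markers in the results was not tested. In bulk RNA, fewer cells of a type and less RNA per cell cannot be told apart.

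The targeted transcript was low in every siZNF593 library. ZNF593 (ENSG00000142684.8, GRCh38 chromosome 1, 26169871 to 26170873, plus strand) lies wholly under the antisense gene ZNF593OS (26169516 to 26171831), so the unstranded counts hold 0 of its reads and its level was taken from the sum of both stranded counts. The siControl libraries held 958, 1100 and 726 such reads, or 34.3, 36.5 and 31.3 CPM, and the siZNF593 libraries 56, 30 and 42 reads, or 2.93, 1.59 and 2.50 CPM. The groups lay far apart, with 6.88% of the control level left (34.04 ± 2.58 against 2.34 ± 0.689 CPM, mean ± SD, n = 3; log2 change -3.93, SE 0.17, adjusted p = 8.27e-14). Either strand alone gave -3.81 and -4.01. These reads cannot separate ZNF593 from its antisense partner. With siZFX the same sum was 37.2 ± 3.44 CPM, in siControl_2 34.9 ± 3.18 CPM and in the double knockdown 3.21 ± 0.480 CPM. ZFX itself was measured at 55.2, 50.8 and 45.7 CPM in siControl and 49.1, 58.5 and 56.3 CPM with siZNF593 (log2 change 0.11, adjusted p = 0.545), and ZNF711, the close relative of ZFX, had too few reads to be tested.

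Of 17684 genes tested, 2164 were higher with siZNF593 (12.2%) and 2577 lower (14.6%), together 26.8%. A gene is called here at an adjusted p under 0.05 in edgeR's quasi-likelihood test with Benjamini-Hochberg adjustment over all tested genes, and every adjusted p below comes from that test. Changes of at least 1.5-fold were called for 997 higher and 982 lower genes, and of at least 4-fold for 68 and 85. The CPM of the groups did not overlap at 7928 of the 17684 tested genes and at 4681 of the 4741 called. A lack of overlap, given below for single genes, therefore adds little to a call. The higher and the lower genes differed in kind. Among protein-coding genes 1780 of 13532 were higher and 2463 lower, while among long non-coding RNAs 284 of 2814 were higher and 85 lower, with a median log2 change of 0.31. Pseudogenes leaned the same way, with 84 of 1014 higher and 26 lower (median 0.20). So did genes of any kind under 1 CPM, with 101 of 3702 higher and 70 lower (median 0.27). Kind and level of gene were not separated. Falls were more frequent among genes with many reads. Over 100 CPM, 29.6% of genes were lower and 14.2% higher, against 5.21% lower and 12.6% higher at 1 to 5 CPM. Upper-quartile scaling, which shifted the median of all genes from 0.02 to 0.07, turned the majority to 2648 higher and 2138 lower. With siControl_2 in place of siControl, 2509 genes were higher and 2901 lower. The 2 control sets themselves differed at 10.3% of genes, so changes that moved by over 1.5 times in fold with the choice of control, and some smaller shifts, are given beside the genes concerned. Leading genes and the first members of each list were named by a rule given with the processing, and the further members listed there were chosen after their values were seen. CCND1, CDK2, DUSP6, FGF2, FGFBP3, FLRT1, FTH1, FZD4, GINS4, IER3, IFIT2, LRATD2, MARS1, MCM2, NFE2L2, NQO1, RPL13A, RPS2, TSR1 and VIM share 10.3% (IFIT2) to 62.4% (FTH1) of their exon bases with another gene; reads there cannot be assigned without strand, so these values are uncertain.

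**Figure D1:**
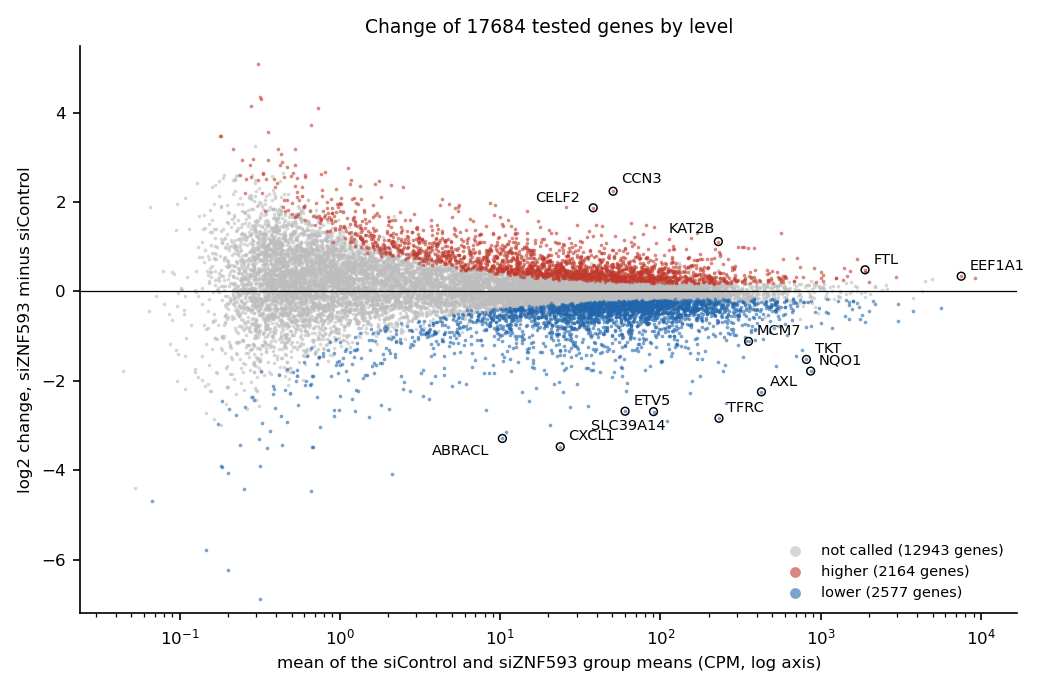
Each point is 1 of the 17684 tested genes, at its mean level over the 6 libraries (CPM, log axis) and its log2 change between siZNF593 and siControl. The 2164 called higher and 2577 called lower genes are coloured, the other 12943 are grey, and the points spread most at low levels. Among the genes named in the plot CXCL1 lies lowest at -3.47 and CCN3 highest at 2.24.

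Leading genes are called protein-coding genes that average 5 CPM or more and whose groups do not overlap, and larger changes occur among genes under that level. For these genes, here and where they return below, a lack of overlap is fixed by the rule. By this rule the deepest falls joined a chemokine, iron and zinc carriers, a receptor kinase and a growth factor binding protein. CXCL1, a chemokine that attracts neutrophils, was at 42.0, 46.9 and 41.8 CPM in siControl and 4.61, 4.09 and 3.00 CPM with siZNF593, a log2 change of -3.47 (SE 0.22, adjusted p = 1.23e-08). Even its lowest control library stood far above its highest knockdown library. ABRACL, a small protein of the costars family linked to actin, read 19.3, 19.6 and 17.3 CPM against 1.65, 1.71 and 2.42 CPM (-3.29, SE 0.19). MAG, the myelin-associated glycoprotein, read 19.6, 18.9 and 19.8 against 2.45, 1.76 and 2.36 CPM (-3.15, SE 0.20). For both genes the 3 knockdown libraries lay far under the controls. Against siControl_2 the change of MAG was -3.90. GTF3C6, a subunit of the RNA polymerase III factor TFIIIC, read 63.4, 61.2 and 57.4 CPM in siControl and 9.17, 10.2 and 11.3 CPM with siZNF593 (-2.57, SE 0.13). RNF125, a ubiquitin ligase that acts on the RNA sensor RIG-I, went from 14.2 ± 0.265 to 2.26 ± 0.196 CPM. CITED4, a partner of the coactivators CBP and p300, went from 25.5 ± 1.23 to 4.67 ± 0.305 CPM. PLOD1, the collagen lysyl hydroxylase, was at 244, 262 and 250.2 CPM in siControl and 53.7, 50.6 and 52.9 CPM with siZNF593 (-2.27, SE 0.09). The 15 deepest falls by this rule, which also hold TFRC, SLC39A14, ETV5, IGFBP3, AXL, LRATD2 and the mitochondrial carrier SLC25A43, ran from 4.73-fold to 11.1-fold lower. 

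The 15 largest rises by the same rule were smaller, from 2.99-fold to 4.73-fold, and included secreted and membrane proteins. CCN3, a matricellular protein, was at 17.8, 18.1 and 17.2 CPM in siControl and 82.9, 89.5 and 78.6 CPM with siZNF593 (2.24, SE 0.10, adjusted p = 8.74e-14). PI15, a secreted protease inhibitor, read 4.82, 4.13 and 2.54 against 13.7, 15.5 and 15.1 CPM (1.94, SE 0.20). In both genes each knockdown library was above each control, as the rule requires. ACAN and PRELP, proteoglycans of cartilage-like matrix, rose from 6.50 ± 0.331 to 22.8 ± 1.96 CPM and from 3.40 ± 0.190 to 10.2 ± 1.41 CPM. The control sets differed at PRELP, whose change was 0.16 against siControl_2 (adjusted p = 0.515). The actin-bundling proteins dematin (DMTN) and espin (ESPN) rose by a log2 of 1.88 (2.62 against siControl_2) and 1.66. CELF2, an RNA-binding regulator of splicing, read 16.4, 16.9 and 15.7 CPM in siControl and 60.2, 62.9 and 56.4 CPM with siZNF593 (1.87, SE 0.11). Against siControl_2 its log2 change was 0.86. SEMA6D, an axon guidance ligand, rose by 1.80 (0.63 against siControl_2), FLRT1, a leucine-rich adhesion protein, by 1.89 (0.82), XKR4, a scramblase relative, by 1.98 (0.60), and RENBP, a sugar epimerase, by 1.86 (0.66). FGFBP3, a carrier of fibroblast growth factors, rose from 2.42 ± 0.0777 to 7.67 ± 1.62 CPM, and SYNGR3, a synaptic vesicle protein, from 3.22 ± 0.862 to 9.84 ± 2.17 CPM. The remaining leading rises were OASL, induced by interferon (1.92; 2.55 against siControl_2), and H2AC25, one of the many near-identical histone genes, whose value is uncertain for that reason. The double knockdown and siControl_2 share no library with this comparison. There, where 17.6% of genes were higher, 20.6% lower and 38.2% either (17.9%, 20.4% and 38.3% without replicate 3 of the double knockdown, which lay apart from its group), all 15 leading falls were called lower and 13 of the 15 leading rises higher, with and without that library. RENBP and H2AC25 were not called, at 0.02 and -0.01 (-0.04 and 0.21 without that library).

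**Figure D2:**
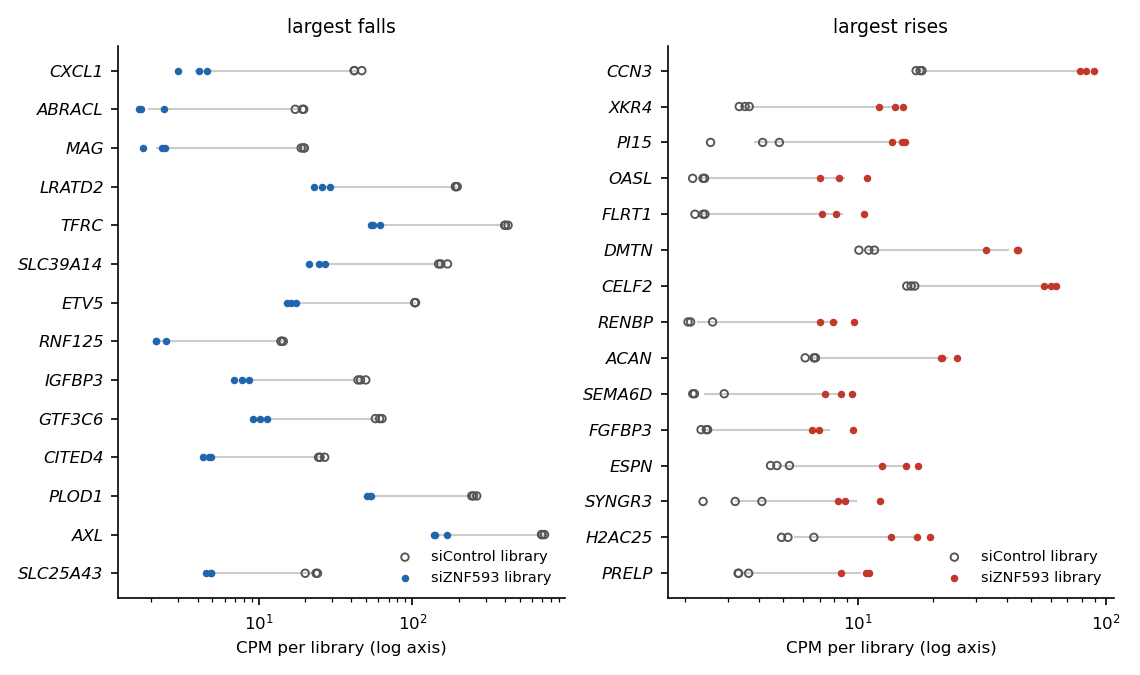
CPM (log axis) of 14 of the 15 protein-coding genes with the largest falls and of the 15 with the largest rises, among called genes with a mean of at least 5 CPM and no overlap between groups. Open grey points are the 3 siControl libraries, filled points the 3 siZNF593 libraries, and lines join the group means; the points of a group lie close together beside the gap between groups.

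Of 28 gene lists plotted, 24 had more members lower than higher. Cytosolic ribosomal proteins, tRNA synthetases and the amino acid stress response had more members higher, and p53 targets had 7 of each. The 28 are a selection, so 24 of 28 is not a share of all lists drawn up. Among lists left out, the insulin-like growth factor axis had 4 of 13 members higher and 2 lower. Glioma stem and proneural genes had 4 of 18 each way, and the BCL2 family 1 of 14 higher and 6 lower. The lists rest on textbook knowledge of the genes, were written with earlier results of these data known, and are incomplete. Among all tested genes the share lower rose with level, from 1.89% under 1 CPM to 29.6% over 100 CPM. Lists were not matched to genes of like level.

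**Figure D3:**
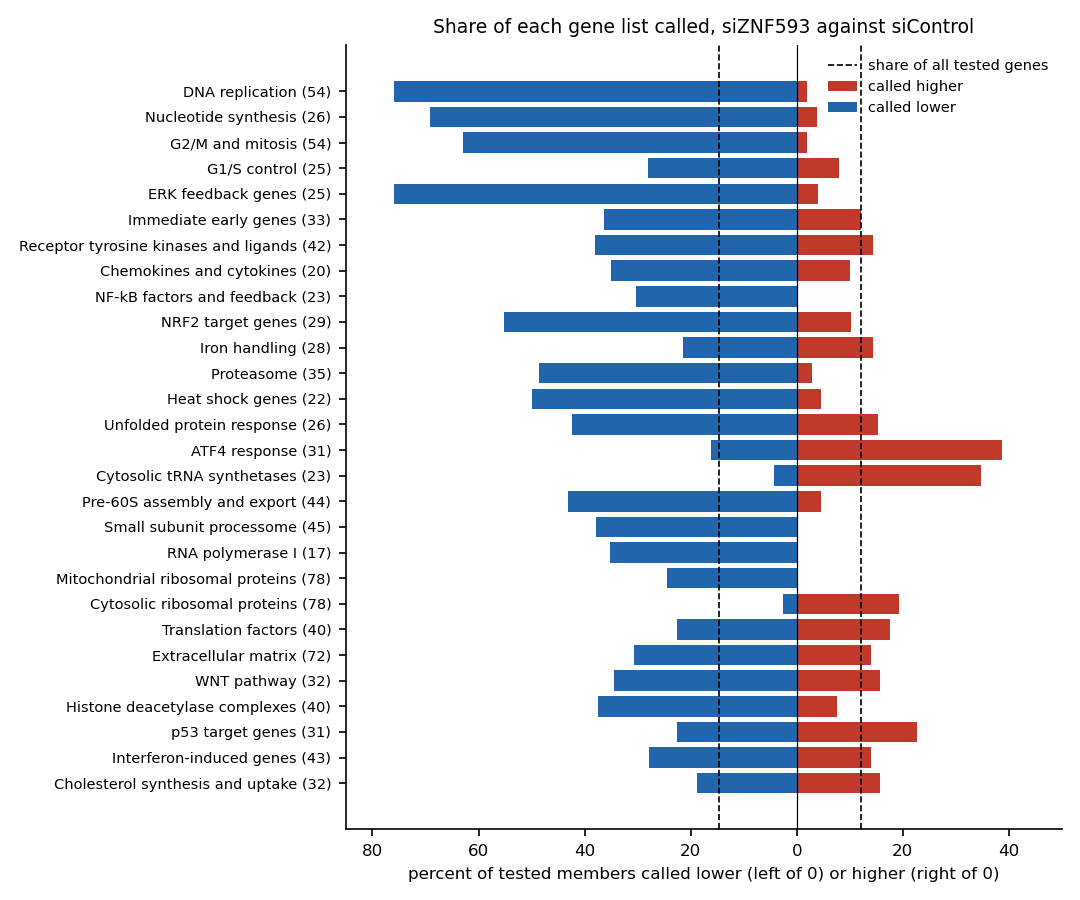
Bars give the percentage of tested members of each list called lower (left) and higher (right) with siZNF593, and dashed lines mark the 14.6% and 12.2% of all tested genes. The lists of DNA replication and of ERK feedback and effector genes reach furthest to the left, with 41 of 54 and 19 of 25 members lower, and the list labelled ATF4 response furthest to the right, with 12 of 31 higher.

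The iron and zinc importers TFRC and SLC39A14 fell several-fold. Cells import iron bound to transferrin through the receptor TFRC, import free iron and zinc through carriers such as SLC39A14 (ZIP14), and store iron in ferritin. TFRC was at 398, 419.5 and 403 CPM in siControl and 55.7, 61.6 and 53.8 CPM with siZNF593 (log2 change -2.84, SE 0.08). SLC39A14 was at 153, 169 and 148 CPM and 24.9, 21.1 and 27.2 CPM (-2.69, SE 0.09, adjusted p = 8.48e-16). The groups are several-fold apart for both importers, and no library comes near the other group. HFE, which binds TFRC, fell to 10.7 ± 1.13 from 18.2 ± 1.47 CPM. On the storage side, the ferritin light chain FTL read 1574, 1672 and 1487 CPM against 2238, 2301 and 2080.2 CPM (0.48, SE 0.08), while the heavy chain FTH1, read on a minority of its exon bases, was at 449 ± 63.8 and 443 ± 14.7 CPM and was not called. FBXL5, the iron-sensing adaptor that marks the iron regulatory protein IREB2 for degradation, rose from 83.0, 87.1 and 79.5 CPM to 158, 172 and 149 CPM (0.94, SE 0.08, adjusted p = 3.66e-09). IREB2 and ACO1, the iron regulatory proteins themselves, were not called (0.15 and 0.09). Of 28 iron handling genes tested 4 were higher and 6 lower (median 0.00). These shares, 14.3% and 21.4%, stand beside 12.2% and 14.6% of all tested genes. By role, 3 of 9 uptake genes were lower and 1 higher, and 2 of 9 storage and export genes were higher and 1 lower. The counts by role rest on few genes, and a difference between roles was not tested.

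The neutrophil chemokines CXCL1 and CXCL8 fell while the monocyte chemokine CCL2 was not called. CXCL8, interleukin 8, was at 33.7, 38.2 and 33.0 CPM in siControl and 7.57, 9.52 and 7.84 CPM with siZNF593, a log2 change of -2.07 (SE 0.16, adjusted p = 3.86e-09). Its control libraries were all above its knockdown libraries, as for CXCL1. CXCL16, a scavenger receptor and chemokine, fell from 5.87 ± 0.609 to 3.05 ± 0.545 CPM, and the low CCL20 from 1.59 ± 0.0891 to 0.249 ± 0.0408 CPM. CCL2 was at 130.4, 143 and 119 CPM and 142, 161 and 118 CPM (0.10, adjusted p = 0.571), so its groups overlap. LIF, a cytokine of the interleukin 6 family, fell from 259.9, 287 and 291 CPM to 75.8, 71.1 and 80.5 CPM (-1.88, SE 0.18), whereas its relative IL11 rose from 39.2, 40.6 and 43.2 CPM to 80.6, 72.0 and 83.1 CPM (0.94, SE 0.22). No library of a group overlaps the other group for either cytokine. Of 32 chemokine and cytokine genes 20 had enough reads to be tested, and 7 were lower and 2 higher (median -0.37; 12 lower with siControl_2 in place of siControl). The control sets differ at these genes, and against siControl_2 the changes were -5.17 (CXCL1), -3.71 (CXCL8), -1.51 (CXCL16), 1.502 (IL11) and, then called, -0.88 (CCL2). NF-kB factors and their feedback inhibitors moved less. Among 23 genes 7 were lower and 0 higher (median -0.17), 13 were lower with siControl_2 in place of siControl, and 4 without siControl replicate 3. TRAF1, an adaptor of tumour necrosis factor receptors, fell from 7.23, 7.77 and 7.42 CPM to 2.61, 2.74 and 3.23 CPM, and BIRC2 from 57.0 ± 3.67 to 35.4 ± 3.67 CPM. RELA was at 126 ± 4.23 and 120.1 ± 6.05 CPM and was not called.

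The promoters of CXCL1 and CXCL8 are shown because their transcripts fell together. They run from 250 bases before to 50 bases after the RefSeq start (GRCh38.p14, 5′ to 3′ on the gene's strand), capitals mark the NF-kB motif GGNNTTTCC on either strand, and the genes were chosen after their values were seen.
CXCL1: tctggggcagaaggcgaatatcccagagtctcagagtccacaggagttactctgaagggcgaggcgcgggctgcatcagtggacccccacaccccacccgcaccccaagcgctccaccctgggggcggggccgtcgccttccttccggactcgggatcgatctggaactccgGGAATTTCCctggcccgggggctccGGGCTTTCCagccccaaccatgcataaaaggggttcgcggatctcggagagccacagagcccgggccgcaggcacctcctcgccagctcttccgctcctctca
CXCL8: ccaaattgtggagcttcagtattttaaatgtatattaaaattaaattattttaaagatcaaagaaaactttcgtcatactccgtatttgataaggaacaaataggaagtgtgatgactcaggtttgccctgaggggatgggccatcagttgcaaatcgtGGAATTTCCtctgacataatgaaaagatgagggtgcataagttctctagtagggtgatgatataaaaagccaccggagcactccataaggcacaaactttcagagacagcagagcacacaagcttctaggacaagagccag
The first lies at chr4:73869143-73869442, plus strand, with 2 matches, and the second at chr4:73740319-73740618, plus strand, with 1. The motif was present in 8 of the 15 chemokine and cytokine promoters at hand (53.3%) and in 6.71% of 10970 promoters of protein-coding tested genes. Promoters of lower genes held it at 7.19% and those of higher genes at 6.16%, both near that share. A match is a string of letters, not a measured binding site.

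Most genes of the ERK response were lower with siZNF593. ERK, the kinase at the end of the growth factor cascade, induces ETS factors and cyclin D and also its own inhibitors, the Sprouty proteins and dual-specificity phosphatases. Of 25 such genes 19 were lower and 1 higher (median -0.53), with 17 to 21 lower over the alternatives tried. All but 1 of the 13 effectors and 7 of the 12 feedback genes were lower. ETV5, an ETS factor, was at 104, 105 and 104 CPM in siControl and 15.2, 16.1 and 17.5 CPM with siZNF593 (log2 change -2.68, SE 0.07). SPRY4, a Sprouty inhibitor, was at 159.7, 143 and 153 CPM and 50.7, 51.6 and 52.2 CPM (-1.56, SE 0.08; -2.45 against siControl_2). CCND1, cyclin D1, went from 767, 740.4 and 731 CPM to 418, 469 and 474 CPM (-0.72, SE 0.06; -0.30 against siControl_2). For each of these the groups are apart, the gap being widest at ETV5. The relative ETV4 fell from 44.3 ± 4.33 to 21.3 ± 1.17 CPM and the phosphatase DUSP4 from 196 ± 2.34 to 91.3 ± 4.07 CPM, while DUSP6 fell by a smaller 0.41 on the log2 scale. IER3, an early response gene, fell from 32.1, 36.1 and 31.0 CPM to 13.3, 12.6 and 10.7 CPM (-1.44; -2.15 against siControl_2). Of the wider list of immediate early genes 12 of 33 were lower and 4 higher, the latter a share of 12.1% that is near the 12.2% of all genes (median -0.20; 2 higher when siControl replicate 1 or 3 or siZNF593 replicate 1 or 3 was left out). EGR1 fell from 221, 218 and 224 CPM to 84.4, 70.3 and 99.5 CPM (-1.38), but its change was -0.30 against siControl_2 (adjusted p = 0.414). MYC went from 32.2 ± 1.31 to 19.6 ± 1.13 CPM (-0.72; -0.36 against siControl_2). ATF3, a stress-induced factor, rose from 14.4, 16.1 and 12.6 CPM to 31.2, 30.3 and 30.5 CPM (1.09; 0.56 against siControl_2), and BTG2, an antiproliferative early gene, from 7.15, 7.94 and 6.94 CPM to 18.2, 17.9 and 18.6 CPM (1.31; 0.79 against siControl_2).

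Receptor tyrosine kinases and their ligands were lower for 16 of 42 and higher for 6. AXL, the receptor of GAS6, was at 692, 724 and 699.6 CPM in siControl and 141, 138 and 168 CPM with siZNF593, a log2 change of -2.25 (SE 0.08, adjusted p = 4.14e-15). No knockdown library came near a control library. ROR1, a WNT5A receptor, fell from 22.2, 21.1 and 19.8 CPM to 8.17, 8.27 and 8.42 CPM (-1.35, SE 0.11), and FGFR1 from 71.1, 73.2 and 73.6 CPM to 28.2, 30.6 and 27.5 CPM (-1.34, SE 0.11). For both receptors the groups are clearly apart. EGFR, the epidermal growth factor receptor, fell from 123 ± 1.69 to 80.3 ± 4.12 CPM, a change of -0.61 that was -0.02 against siControl_2 (adjusted p = 0.874). PDGFA, a platelet-derived growth factor, fell by 1.01 on the log2 scale, whereas the fibroblast growth factor FGF2 rose by 0.87 and the receptor FGFR4 by 0.77 (PDGFA -1.71 and FGFR4 1.18 against siControl_2). In the insulin-like growth factor axis 4 of 13 genes were higher and 2 lower (5 and 5 against siControl_2). IGFBP3, which binds the growth factors in the extracellular space, fell from 46.0, 49.8 and 44.3 CPM to 7.77, 8.64 and 6.86 CPM (-2.59, SE 0.12). IRS2, an adaptor under the insulin receptor, rose from 105, 97.0 and 95.8 CPM to 189, 182 and 203 CPM (0.95, SE 0.08; 1.45 against siControl_2). In neither gene did the groups overlap.

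Most genes of the replication machinery were lower. DNA is licensed in G1 when ORC, CDC6 and CDT1 load the MCM helicase, and CDC45, GINS, PCNA with its RFC loader and the polymerases join when forks start. Of 54 such genes 41 were lower and 1 higher (median -0.46), with 28 lower against siControl_2. By role, 12 of 17 licensing genes, 18 of 23 helicase and fork genes, 6 of 9 polymerase and primase genes and 5 of 5 chromatin factors at forks were lower. MCM7 was at 486, 490.4 and 481 CPM in siControl and 234, 216 and 222 CPM with siZNF593 (log2 change -1.12, SE 0.07). RFC3, a subunit of the clamp loader, was at 95.4, 97.9 and 92.7 CPM and 36.7, 40.4 and 37.5 CPM (-1.32, SE 0.09, adjusted p = 9.55e-11). CHAF1B, of the histone chaperone that follows the fork, was at 20.2, 22.3 and 21.9 CPM and 8.67, 7.14 and 9.46 CPM (-1.35, SE 0.13). In these 3 genes every knockdown library was far below the lowest control. GINS4 and GINS1 fell by 1.14 and 1.07 on the log2 scale, UHRF1, which recruits the DNA methyltransferase, by 1.09, and the MCM subunits MCM2 to MCM6 by 0.54 (MCM3; -0.30 against siControl_2) to 0.93 (MCM5). ORC2 was the gene called higher (0.29), a call that was lost when siControl replicate 1 or 2 or any siZNF593 library was left out, and ORC3, ORC4, ORC5 and ORC6 were not called. Genes that supply DNA precursors were lower as well, with 18 of 26 nucleotide synthesis genes lower and 1 higher (median -0.31; 14 to 20 lower over the alternatives). Thymidine kinase TK1 was at 356, 379.6 and 343 CPM in siControl and 187, 198 and 174 CPM with siZNF593 (-0.95, SE 0.07), and the pyrimidine enzyme DHODH went from 21.5 ± 0.710 to 13.1 ± 1.65 CPM.

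**Figure D4:**
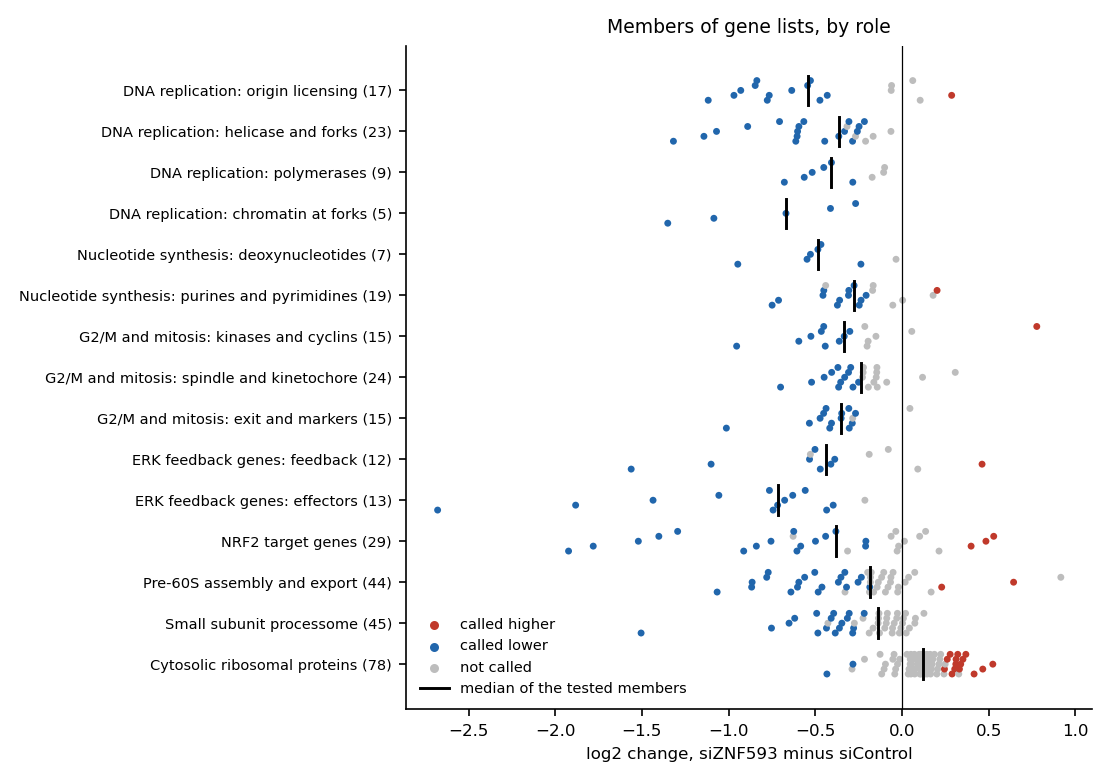
Each point is the log2 change of 1 tested member between siZNF593 and siControl, arranged by list and role, with a black bar at the median. All 5 chromatin factors at forks and all but 1 of the ERK effectors were called lower, whereas cytosolic ribosomal proteins cluster just above 0, with a median of 0.12.

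The promoters of MCM7 and RFC3 are shown with the E2F motif in capitals (TTTCCCGC, TTTCGCGC, TTTGCCGC or TTTGGCGC on either strand). E2F factors drive replication genes at the start of S phase.
MCM7: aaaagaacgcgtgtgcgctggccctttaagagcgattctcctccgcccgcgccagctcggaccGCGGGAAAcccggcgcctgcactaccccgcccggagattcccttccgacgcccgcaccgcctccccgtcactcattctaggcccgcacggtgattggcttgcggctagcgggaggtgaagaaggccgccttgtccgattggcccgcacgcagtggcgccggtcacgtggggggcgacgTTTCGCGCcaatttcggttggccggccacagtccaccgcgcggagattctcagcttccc
RFC3: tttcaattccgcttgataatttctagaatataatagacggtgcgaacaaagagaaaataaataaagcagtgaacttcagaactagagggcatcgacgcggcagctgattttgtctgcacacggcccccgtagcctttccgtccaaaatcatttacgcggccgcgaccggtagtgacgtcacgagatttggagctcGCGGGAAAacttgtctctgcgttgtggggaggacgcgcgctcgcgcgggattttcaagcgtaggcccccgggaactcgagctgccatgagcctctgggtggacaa
They lie at chr7:100101348-100101647, minus strand, with 2 matches, and at chr13:33817899-33818198, plus strand, with 1, on GRCh38.p14 from RefSeq. The motif stands in 23 of 47 DNA replication promoters (48.9%) and in 5.40% of all 10970. Among promoters of lower genes 7.24% held it and among those of higher genes 3.32%. The E2F genes themselves moved less, E2F2 falling from 32.9 ± 0.391 to 19.4 ± 1.69 CPM and E2F1 standing at 124 ± 1.98 and 114 ± 3.72 CPM without a call.

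Mitotic genes were lower too, with a smaller median. Of 54 genes of G2 phase and mitosis 34 were lower and 1 higher (median -0.31), and against siControl_2 23 were lower. Among them were 13 of 15 genes of mitotic exit and proliferation markers, 12 of 24 spindle and kinetochore genes and 9 of 15 kinases and cyclins. BIRC5 (survivin) was at 337, 355 and 315 CPM in siControl and 165, 174 and 159.7 CPM with siZNF593 (log2 change -1.01, SE 0.06). CENPA, the centromeric histone, was at 43.8, 46.9 and 40.7 CPM and 29.3, 25.7 and 25.9 CPM (-0.70, SE 0.10). CENPF, a kinetochore protein, was at 582, 586 and 545 CPM and 472, 528 and 550.5 CPM and was not called. WEE1, the kinase that restrains entry into mitosis, went against the list, from 52.2, 50.1 and 56.3 CPM to 83.3, 98.6 and 89.9 CPM (0.78, SE 0.09). The proliferation marker MKI67 fell from 554 ± 34.3 to 382 ± 42.9 CPM. Of 25 G1/S regulators 7 were lower and 2 higher (12 lower with GC and length offsets), the inhibitor CDKN1B (p27) rising from 73.7 ± 2.57 to 104 ± 2.18 CPM and CDK2 falling from 58.0 ± 3.41 to 37.0 ± 2.89 CPM. CDKN1A, the p53 target p21, was at 185, 189 and 178 CPM and 176, 176 and 172 CPM (-0.08, adjusted p = 0.642). Across 31 p53 target genes 7 were higher and 7 lower (median -0.01; 4 higher without siZNF593 replicate 2), PMAIP1 (NOXA) falling from 63.9 ± 6.33 to 39.2 ± 5.64 CPM and CYFIP2 rising from 10.4 ± 0.505 to 19.2 ± 1.23 CPM (-0.39 and 0.40 against siControl_2).

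The promoter of CENPA carries the CHR element TTTGAA, in capitals, a motif of genes expressed late in the cell cycle, and is shown as the mitotic counterpart of the replication promoters.
CENPA: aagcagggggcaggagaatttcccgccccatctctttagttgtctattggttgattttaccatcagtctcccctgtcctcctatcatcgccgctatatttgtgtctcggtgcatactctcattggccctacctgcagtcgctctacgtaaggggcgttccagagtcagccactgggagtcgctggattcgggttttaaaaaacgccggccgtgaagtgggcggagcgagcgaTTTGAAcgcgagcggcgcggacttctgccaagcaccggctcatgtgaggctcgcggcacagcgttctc
It lies at chr2:26785806-26786105, plus strand, with 1 match. The same promoter also holds 1 match of the E2F motif, TTTCCCGC, left in lower case. The element stands in 30 of 45 mitotic promoters (66.7%) and in 10.0% of all 10970. Promoters of lower genes held it at 10.2% and those of higher genes at 9.55%, both near that share.

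Assembly factors of the large ribosomal subunit, with which ZNF593 is grouped by its yeast counterpart, were lower for 19 of 44 and higher for 2 (median -0.18; 10 lower against siControl_2 and 12 against all 6 controls). TMA16 was at 33.7, 35.3 and 34.1 CPM in siControl and 14.6, 16.9 and 17.9 CPM with siZNF593 (log2 change -1.07, SE 0.12). NIFK, a nucleolar partner of Ki-67, went from 45.1, 46.1 and 45.2 CPM to 22.4, 28.5 and 24.0 CPM (-0.86, SE 0.13), and RAN, the GTPase that powers nuclear export, from 493, 533 and 482 CPM to 279, 290.3 and 258 CPM (-0.87, SE 0.08). In all 3 the groups lay apart. The export adaptor NMD3 fell from 57.5 ± 4.32 to 36.9 ± 4.84 CPM and the nucleolar GTPase GNL3L from 44.8 ± 2.80 to 26.1 ± 1.71 CPM, whereas the receptor XPO1 was not called (-0.10). NOP53, which recruits the exosome to the precursor, rose from 97.8 ± 4.53 to 153 ± 2.96 CPM. In the small subunit processome 17 of 45 genes were lower and 0 higher (median -0.14; 8 lower against siControl_2). TSR1, a late assembly factor of the small subunit, was its deepest fall, from 87.4, 88.1 and 88.7 CPM to 30.3, 33.2 and 29.6 CPM (-1.505, SE 0.08). Of 17 RNA polymerase I genes 6 were lower and 0 higher (3 lower and 4 higher against siControl_2).

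Cytosolic ribosomal protein mRNAs leaned the other way. Of 78 tested 15 were higher and 2 lower, with a median log2 change of 0.12. That share, 19.2%, is above the 12.2% of all genes by a small margin, and it fell to 8 of 78 without siZNF593 replicate 2 and rose to 27 without replicate 3 of the double knockdown to 29 with only the 6 libraries in the fit and to 26 with upper-quartile factors. RPL13A was at 738, 797 and 707 CPM in siControl and 1099.9, 1098 and 1025 CPM with siZNF593 (0.52, SE 0.07). RPL31 fell from 344, 390.4 and 340.4 CPM to 277, 269 and 250.2 CPM (-0.43, SE 0.09), and RPS2, of the small subunit, was not called (0.09). These genes have many near-identical copies in the genome, so single values are uncertain. The elongation factor EEF1A1 rose from 6646 ± 391.8 to 8416 ± 422 CPM, while the initiation factor subunits EIF3B and EIF3A fell from 479.5 ± 4.25 to 257 ± 7.24 CPM and from 354 ± 11.3 to 247 ± 6.13 CPM. Mitochondrial ribosomal proteins were lower for 19 of 78 and higher for 0 (35 lower without replicate 3 of the double knockdown, 33 with only the 6 libraries and 31 with GC and length offsets). The 24.4% lower stands beside 14.6% of all tested genes and 22.2% of those at 20 to 100 CPM. Proteasome subunits were lower for 17 of 35 and higher for 1 (median -0.20; 10 lower without siControl replicate 2, 4 higher against siControl_2). PSMD11, of the regulatory lid, stood out among them, at 251, 247 and 249 CPM in siControl and 94.3, 101 and 91.3 CPM with siZNF593 (-1.38, SE 0.07, adjusted p = 2.51e-13). The next deepest subunit, PSMD6, fell by 0.51 on the log2 scale. Heat shock genes were lower for 11 of 22 and higher for 1 (median -0.25), with HSP90AA1 falling from 1803 ± 86.9 to 1184 ± 122 CPM (-0.61; -0.38 against siControl_2) and HSPA8 from 2140.1 ± 98.1 to 1474 ± 109.8 CPM. Chaperones of the endoplasmic reticulum were lower for 9 of 14 and higher for 1, among them HSPA5 (BiP), from 1854 ± 78.5 to 1539 ± 87.2 CPM (-0.27; -0.47 against siControl_2).

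Several enzymes of the antioxidant response fell steeply. NRF2 (NFE2L2), the factor that responds to oxidants, induces NQO1, the AKR1C reductases and the pentose phosphate enzymes that supply NADPH. Of 29 target genes 16 were lower and 3 higher (median -0.38; 9 lower and 5 higher against siControl_2). NQO1 was at 1307, 1449 and 1269 CPM in siControl and 381, 406 and 384 CPM with siZNF593, a log2 change of -1.78 (SE 0.06, adjusted p = 3.82e-15). TKT, transketolase, was at 1212, 1223 and 1190.1 CPM and 439, 402 and 423 CPM (-1.52, SE 0.07). AKR1C1 was at 74.9, 85.9 and 75.7 CPM and 17.7, 25.5 and 19.0 CPM (-1.92, SE 0.11), in a family of near-identical genes whose single values are uncertain. All 3 were several-fold lower in every knockdown library. EPHX1, a detoxifying epoxide hydrolase, fell from 140.5 ± 5.87 to 74.6 ± 2.87 CPM. NFE2L2 itself was called higher (141 ± 2.82 to 186 ± 24.0 CPM, 0.40), a call lost without siZNF593 replicate 2 and against siControl_2.

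Some genes of amino acid supply rose. ATF4, the factor translated when amino acids run short, induces transporters, synthesis enzymes and tRNA synthetases. Of 31 genes of its response 12 were higher and 5 lower (median 0.23; 8 lower with only the 6 libraries in the fit or without replicate 3 of the double knockdown). SLC7A5, the large neutral amino acid transporter, was at 1262, 1293 and 1237 CPM in siControl and 2064, 1987 and 2222 CPM with siZNF593 (0.73, SE 0.13; 1.33 against siControl_2), and its partner SLC3A2 rose from 605 ± 35.1 to 889.8 ± 42.8 CPM. ATF4 rose from 431, 472 and 468 CPM to 638, 619 and 588 CPM (0.43, SE 0.08). TRIB3, a feedback inhibitor of ATF4, instead fell from 46.4, 53.9 and 48.5 CPM to 25.9, 24.3 and 23.7 CPM (-1.01, SE 0.10). The members therefore did not all move one way. Of 23 genes of cytosolic tRNA synthetases and their scaffold 8 were higher and 1 lower, with a median of -0.08. There 5 were higher without siControl replicate 3, siZNF593 replicate 2 or siZNF593 replicate 3. Members lower numbered 4 with only the 6 libraries in the fit, 5 without siZNF593 replicate 2, and 7 with GC and length offsets or without replicate 3 of the double knockdown. MARS1 rose from 244, 236 and 242 CPM to 340.0, 339.9 and 336 CPM (0.49, SE 0.06).

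Of 72 extracellular matrix genes 22 were lower and 10 higher (median -0.13), the latter share, 13.9%, being near that of all genes, and 40 were lower against siControl_2. FN1, fibronectin, went from 2340.0 ± 90.0 to 1447 ± 125 CPM and the laminin chain LAMC1 from 1095 ± 37.4 to 636 ± 36.1 CPM, while the collagen chain COL11A1 rose from 1154 ± 22.3 to 1652 ± 53.4 CPM (-1.30 for LAMC1 and 0.22 for COL11A1 against siControl_2, -0.78 and 0.52 against siControl). SDC4, a heparan sulfate syndecan, fell from 173, 178 and 169 CPM to 73.0, 72.5 and 74.6 CPM (-1.24, SE 0.07). In the WNT pathway 11 of 32 were lower and 5 higher (15.6%, also near the background). The WNT receptor FZD7 was at 106, 113 and 101 CPM in siControl and 44.4, 42.6 and 48.6 CPM with siZNF593 (-1.24, SE 0.09), and FZD8 and FZD1 fell by 1.13 and 1.02 on the log2 scale. SFRP1, a secreted WNT antagonist, was at 85.0, 95.1 and 90.3 CPM and 23.0, 23.7 and 26.2 CPM (-1.89, SE 0.08). Both the receptors and this antagonist were thus lower in all 3 knockdown libraries. FZD4 rose from 12.9 ± 0.794 to 22.8 ± 2.77 CPM. Of 40 genes of histone deacetylase complexes 15 were lower and 3 higher (median -0.16; 1 higher against siControl_2), ING1, a subunit of the SIN3 complex, falling from 32.1 ± 1.15 to 17.9 ± 0.903 CPM.

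Glial lineage genes split. LN-229 carries some transcripts found in the oligodendrocyte lineage, such as SOX10, a factor of neural crest and oligodendrocytes. SOX10 stood at 1276 ± 16.9 CPM in siControl and 1138 ± 48.1 CPM with siZNF593 and was not called. Other markers of the lineage, MBP, MOG and CNDP1, had means under 1 CPM over the 6 libraries. Of 13 markers of that lineage 12 were tested, 5 being lower and 2 higher. MAG, found in myelin next to the axon, was among the deepest falls, whereas MYRF, the factor that switches on myelin genes, rose from 12.8 ± 1.60 to 31.8 ± 2.83 CPM (1.31, SE 0.14). The groups overlap for neither gene. Of 20 mesenchymal glioblastoma genes 8 were lower and 4 higher (2 higher without siControl replicate 3 or siZNF593 replicate 1 or 3), and of 18 glioma stem and proneural genes 4 were lower and 4 higher (7 lower against siControl_2, with GC and length offsets or without replicate 3 of the double knockdown). The mesenchymal shares were 40% lower and 20% higher, and the stem shares 22.2% each, beside 14.6% and 12.2% of all tested genes. The genes named next all fell, whereas the largest upward log2 changes of tested members were 0.55 (mesenchymal) and 1.07 (stem). Nestin (NES) fell from 1103, 1089.7 and 1064 CPM to 449, 407 and 451 CPM (-1.32, SE 0.09), the hyaluronan receptor CD44 from 815 ± 6.43 to 415 ± 10.9 CPM and vimentin (VIM) from 1238 ± 22.0 to 763 ± 76.9 CPM.

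In the double knockdown against siControl_2, 22 of the 54 replication genes were lower and 6 higher (23 and 5 without replicate 3), and 27 of the 54 mitotic genes lower and 3 higher (34 and 3). The ERK genes were lower for 15 of 25 and higher for 1 with either set of libraries, and chemokines and cytokines lower for 15 of 20 and higher for 0 (14 and 1 without replicate 3). The background there is 20.6% lower and 17.6% higher. Several other lists did not keep their lean there. Cytosolic ribosomal proteins were higher for 2 of 78 and lower for 20, factors of large subunit assembly higher for 12 of 44 and lower for 6, the small subunit processome higher for 10 of 45 and lower for 8, and mitochondrial ribosomal proteins higher for 18 of 78 and lower for 16. NRF2 targets were higher for 7 of 29 and lower for 7 (12 and 8 without replicate 3), proteasome subunits higher for 5 of 35 and lower for 7 (5 and 12), genes of the ATF4 response higher for 9 of 31 and lower for 9, genes of the insulin-like growth factor axis higher for 2 of 13 and lower for 7, and p53 targets higher for 1 of 31 and lower for 12 (3 and 13). Whether the lists differ between the single and the double knockdown was not tested.

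All 15 leading falls were lower and all 15 leading rises higher with siZNF593 than with siZFX, but the rule that chose them used the same siZNF593 libraries. Of 131 named genes called against siControl, 17 were not called between the knockdowns. These 131 were likewise called, and many chosen by the size of their change, with the same siZNF593 libraries. The count therefore does not measure how often siZNF593 and siZFX differ. The comparisons of each knockdown with siControl use the same siControl libraries, so their values are given side by side. The difference was tested between the 3 siZNF593 and 3 siZFX libraries, where 40.5% of all genes were called. The genes that follow were chosen after their values were seen. NQO1 stood at 2268 ± 20.6 CPM with siZFX and 390.4 ± 13.8 CPM with siZNF593, a log2 difference of -2.54 (SE 0.07, adjusted p = 1.84e-17). AXL was at 676 ± 22.0 and 149 ± 16.5 CPM (-2.18, SE 0.08, adjusted p = 3.08e-15). SLC39A14 was at 145 ± 0.394 and 24.4 ± 3.06 CPM (-2.58, SE 0.09), and PSMD11 at 211 ± 8.41 and 95.5 ± 4.85 CPM (-1.14, SE 0.07). MCM7, RFC3 and BIRC5 were at 416 ± 11.2, 50.3 ± 1.99 and 279 ± 10.3 CPM with siZFX, with differences of -0.89 (adjusted p = 2.47e-10), -0.40 (adjusted p = 0.000899) and -0.75 (adjusted p = 2.39e-09). TSR1, at 80.7 ± 6.99 CPM with siZFX, differed by -1.38 (SE 0.08). SPRY4 was at 125 ± 6.13 CPM with siZFX (difference -1.27, adjusted p = 1.77e-11). Genes not called between the knockdowns included EGR1 at 84.7 ± 28.0 CPM with siZFX (difference 0.00, adjusted p = 0.999), CHAF1B at 9.85 ± 0.746 CPM (-0.23, adjusted p = 0.184), LIF at 98.1 ± 7.66 CPM (-0.37, adjusted p = 0.111) and HSPA8 at 1412 ± 18.0 CPM (0.06, adjusted p = 0.536). Against siControl, siZFX gave log2 changes in the same direction for CXCL1 (-1.78, beside -3.47 with siZNF593), CXCL8 (-1.36 beside -2.07), IGFBP3 (-1.52 beside -2.59) and LIF (-1.51 beside -1.88). The direction was opposite for NQO1 (0.76 beside -1.78), TKT (0.53 beside -1.52) and AKR1C1 (0.93 beside -1.92). The difference of -2.54 at NQO1 thus holds a rise with siZFX as well as a fall with siZNF593. For the first 9 genes, the double knockdown against siControl_2 gave log2 changes of -0.89 (NQO1; -0.88), -1.17 (AXL; -1.08), -2.47 (SLC39A14; -2.50), -0.77 (PSMD11; -0.74), -0.77 (MCM7; -0.70), -0.70 (RFC3; -0.81), -0.75 (BIRC5; -0.73), -0.64 (TSR1; -0.69) and -1.07 (SPRY4; -0.96), the second value being that without its replicate 3. Other named genes did not keep their change there. Without replicate 3, CYFIP2 (-1.73) and BTG2 (-0.60), both higher with siZNF593, were called lower. CCND1 (0.03) and MYC (-0.03) were not called. TMA16 (-0.14) and NIFK (-0.10) were not called with all libraries, but were called lower without replicate 3 (-0.31 and -0.30).

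**Figure D5:**
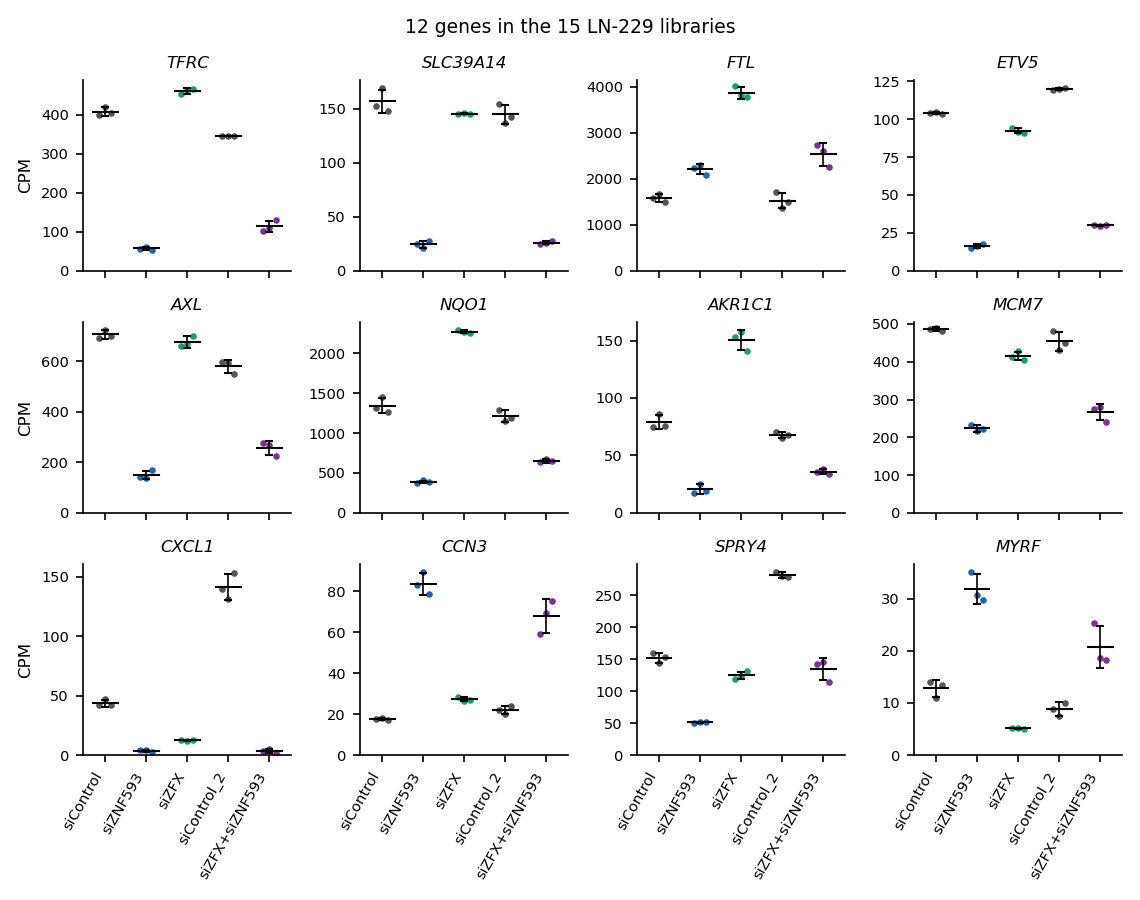
CPM of 12 genes in each of the 15 LN-229 libraries, by group, with bars at the mean ± SD of 3 libraries. Points of siZNF593 and of the double knockdown lie under both control sets for TFRC and AXL, while siZFX leaves TFRC at 460.2 ± 7.63 CPM.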

How the data were processed

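Total RNA was extracted with Trizol and made into libraries by Novogene with the NEBNext Ultra II RNA kit, per the labels' protocols. The authors deposited whole-number counts per gene laid out as STAR writes them (an unstranded column, then 1 for each strand). STAR, HTSeq and DESeq2 with hg38 are named without versions per the submitters' processing notes. All 58721 gene IDs match GENCODE 29. The unstranded counts were used, as reads fell on both strands alike, and ZNF593 was read from both stranded columns, since the unstranded one omits reads under 2 genes.

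All 15 LN-229 libraries were fitted with edgeR 4.0.16 (limma 3.58.1, R 4.3.3; robust quasi-likelihood, TMM factors, filterByExpr, 1 coefficient per group, 10 residual degrees of freedom). A gene was called where its adjusted p (Benjamini-Hochberg) was under 0.05. SEs were taken as the size of the log2 change divided by the root of the F statistic, and CPM are scaled by TMM factors of 0.965 to 1.047. The CPM of ZNF593 and the sums and means of cell markers are instead per library total of gene counts, without these factors. The biological coefficient of variation was 11.2%. Depth was 16774179 to 30159260 gene counts over the 6 libraries. Python 3.11.15 with numpy 2.4.6, pandas 2.3.3 and matplotlib 3.10.9 read the files and drew the figures. The fit was checked on simulated data.

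The rule names the targeted factors; the 15 strongest rises and 15 strongest falls of protein-coding genes, among those called with a mean of at least 5 CPM and no overlap between groups; and, of each list, up to 4 members of largest change and the member of highest mean CPM. Named beyond the rule were ACO1, ATF4, CCL2, CDKN1A, CDKN1B, COL11A1, CXCL16, DUSP4, DUSP6, E2F1, EGFR, EPHX1, ETV4, FBXL5, FGF2, FGFR1, FGFR4, FN1, FTH1, FZD1, FZD4, FZD8, GINS1, GNL3L, HFE, HIF1A, IL11, IREB2, LAMC1, MCM3, MCM5, MKI67, NFE2L2, NMD3, NOP53, ORC2 to ORC6, PDGFA, ROR1, SLC3A2, UHRF1 and XPO1. A leading fall and a lineage marker are not reported here by name. The members, lists and alternatives were chosen with earlier results of these data known. Promoters are those of RefSeq on GRCh38.p14, matched by symbol for 10970 of 13532 protein-coding tested genes.

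Alternatives were DESeq2 1.42.0, factors by RLE or the upper quartile, a filter of 1 CPM in 3 libraries or none, the 6 libraries alone, a replicate block, both stranded columns summed, GC and length offsets, siControl_2 or all 6 controls, and each library left out. Leaving out replicate 3 of the double knockdown and thinning to 16774179 counts were added after seeing the data.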

Additional observations from a re-analysis of the deposited data

How the results depend on the processing

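Every alternative kept the counts of called genes within 1.5 times of 2164 higher and 2577 lower. DESeq2 gave 2312 and 2790, RLE factors 2117 and 2643, no filter 1838 and 2870 (39% of calls higher in place of 45.6%), the 6 libraries alone 2973 and 3315, GC and length offsets 2650 and 3382, both stranded columns summed 2342 and 2813, and all 6 controls 2345 and 2644. Leaving out 1 library of the groups compared gave 1479 to 1647 higher and 2085 to 2419 lower, and leaving out replicate 3 of the double knockdown 2971 and 3575. Replicate numbers did not pair the samples: same-numbered libraries had deviations correlated at -0.02, 0.06 and 0.01, and a replicate block gave 2119 and 2592. ZNF593 at its target stayed between -4.14 and -3.73 with 1 library left out and at -3.98 against siControl_2. Of 149 genes named with values, 4 lost their call against siControl_2 (EGFR, EGR1, NFE2L2 and PRELP) and CCL2 was called lower there (-0.88). Both stranded columns summed turned FTH1 from -0.02 to a called 0.21, as they count reads that the unstranded column omits. RLE factors, upper-quartile factors, the block and DESeq2 changed no call of these genes. For lists whose counts are printed, values that moved by over 1.5 times and by 3 or more genes stand beside them. Of genes under 1 CPM, 2.73% were called higher and 1.89% lower. The cause of these shifts was not tested.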

Other observations

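Glycolysis and contractile genes had more members lower than higher. Of 22 glycolysis genes 9 were lower and 3 higher with siZNF593 (40.9% and 13.6%, beside 14.6% and 12.2% of all tested genes). LDHA, which turns pyruvate into lactate, was at 1518, 1597 and 1430.1 CPM in siControl and 796, 931 and 839 CPM with siZNF593 (log2 change -0.82, SE 0.07). PFKFB3, which makes the activator of phosphofructokinase, was at 175, 174 and 177 CPM and 77.8, 72.9 and 82.8 CPM (-1.17, SE 0.08). The groups lay apart at both. ENO2, the neuronal enolase, rose from 37.6 ± 0.954 to 64.8 ± 4.72 CPM, and HIF1A, the oxygen-regulated factor, fell from 490.3 ± 16.3 to 329 ± 32.3 CPM. Of 18 hypoxia genes 4 were lower and 2 higher (22.2% and 11.1%), nearer the shares of all genes.

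Of 16 genes of the SRF and contractile list 6 were lower and 2 higher (37.5% and 12.5%, the latter near the 12.2% of all genes). ACTN1, an actin crosslinker of focal adhesions, was at 637, 627 and 621 CPM in siControl and 327, 324 and 346 CPM with siZNF593 (-0.92, SE 0.06). TPM2, a tropomyosin, was at 78.0, 81.5 and 84.4 CPM and 37.4, 30.2 and 34.6 CPM (-1.25, SE 0.16; -0.77 against siControl_2). Neither gene overlaps between the groups. NT5E (CD73), the ectoenzyme that makes adenosine, fell from 367, 409 and 377 CPM to 110.5, 132 and 126 CPM (-1.65, SE 0.07), while LTBP1, which holds latent TGF-beta in the matrix, rose from 41.8, 40.8 and 40.1 CPM to 82.6, 97.8 and 106 CPM (1.22, SE 0.09). TGIF1, a repressor of TGF-beta signalling, fell from 69.3 ± 3.76 to 31.0 ± 1.34 CPM. Of 43 interferon-induced genes 12 were lower (27.9%) and 6 higher (14%, near the 12.2% of all genes). Against siControl_2 20 were lower, and 3 were higher without siControl replicate 1 or 3. IFIT2 fell from 14.2, 13.7 and 13.4 CPM to 4.61, 5.28 and 3.29 CPM (-1.64, SE 0.16). OASL rose from 2.15, 2.41 and 2.37 CPM to 10.9, 7.03 and 8.36 CPM (1.92, SE 0.23).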
